A study of Mus musculus with 12 samples.

Results

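A set of 49 genes, of 56953 in the deposited tables, stood higher in spinal cords labelled cKO than in control cords at 4 weeks after tamoxifen and had similar cKO and control means at 4.5 weeks. The members were chosen from the measured values of both comparisons, on CPM (a gene's count divided by the column sum of its library, times 1000000). A gene was taken when its mean CPM in the cKO libraries was 2 or more at 4 weeks, when all 3 cKO libraries lay above all 3 control libraries at that time with a ratio of means of 1.7 or more, and when the ratio of means lay between 0.8 and 1.25 at 4.5 weeks. Genes on the X and Y chromosomes were to be left out, and 0 such genes met the other criteria. The values that chose the members are therefore a description, and calls by a test on the same values, given further on, support nothing about them. Every one of the 49 genes passed the filter on low counts, and 45 matched the annotation used for gene types. These were 39 protein-coding genes, 3 lincRNAs, 1 antisense RNA, 1 processed pseudogene and 1 transcript awaiting experimental support. The chromosome of the other 4 members, which carry only an Ensembl identifier, is unknown here, so a place on X or Y was not checked for them.

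The study measured messenger RNA in whole mouse spinal cord, with 12 libraries in 4 groups of 3 animals: cKO at 4 weeks, control at 4 weeks, cKO at 4.5 weeks and control at 4.5 weeks after tamoxifen. The cKO mice carried loxP-flanked Ddx20 alleles (Ddx20 flox/flox) together with the Plp-CreER transgene, whose Cre recombinase needs tamoxifen to act. The driver acts in oligodendrocyte-lineage cells and in Schwann cells, so other cells of a cord labelled cKO keep their Ddx20 alleles. The alleles, the Cre status and the age of the control mice are not given in the sources used here. Library totals lay between 33104560 and 47677267 counts. Ddx20 transcript was no lower under the cKO label: those libraries held 10.6, 11.7 and 10.4 CPM at 4 weeks, against 10.9, 9.61 and 10.8 CPM in controls, and 12.4, 11.3 and 13.6 CPM at 4.5 weeks, against 8.95, 10.2 and 9.1 CPM in controls. Its log2 difference was -0.03 (SE 0.1, adjusted p = 0.84) at 4 weeks and 0.33 (SE 0.1, adjusted p = 0.013) at 4.5 weeks by edgeR's quasi-likelihood test, and the later adjusted p was 0.063 without cKO library 3 and 0.06 without control library 1 of that time. The transcript therefore does not check the genotype labels, and each direction below is that of the libraries labelled cKO. By Xist and the Y-linked genes Ddx3y and Uty, the 3 controls of 4 weeks and cKO library 3 of that time were male. The other 8 libraries were female, so sex and genotype partly overlap at 4 weeks, and sex and time cannot be told apart in the controls. Every library of 4.5 weeks was female, so a difference by sex could add to a ratio at 4 weeks and not at 4.5 weeks. The rule asks cKO library 3 of 4 weeks to lie above its 3 controls of the same sex. The share of sex in the ratios was not tested. The cord label was met by Mbp of myelin, Gfap of astrocytes, Snap25 of neurons and Hoxc8 of caudal neural tissue, which were present in all 12 libraries. In a whole cord, fewer cells of a type and less RNA per cell cannot be told apart.

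Ddx20 encodes Gemin3, a DEAD-box helicase of the SMN complex. That complex loads the Sm ring onto small nuclear RNAs and so builds the particles of the spliceosome. Oligodendrocytes make the myelin of the cord, and astrocytes and microglia change their transcription when oligodendrocytes or axons are damaged. Genes that go up and come down again after a stimulus include immediate early genes, which answer synaptic activity or growth factors, antioxidant genes under the factor Nrf2, and cell cycle genes whose transcripts follow division.

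Promoters were read for 36 of the 49 members from RefSeq (build GRCm38.p6), in 48 windows of 250 bases before to 50 bases after a start site. The short stretches below are shown because they hold the motifs of stimulus-bound factors that stand in members described below. Each is the 150 bases before a start site, 5′ to 3′ on the gene's own strand, and the capitals mark the motif matches. The stretch of Srxn1 lies at chr2:152105374-152105523 on the plus strand and holds TGANTCA, the AP-1 motif. That of Mcam, at chr9:44134508-44134657 on the plus strand, holds TGACGTCA, the cyclic AMP response element (CRE). That of Oas1c, at chr5:120812515-120812664 on the minus strand, holds overlapping copies of the interferon-stimulated response element (ISRE), and CCAAT. That of Avil, at chr10:127000559-127000708 on the plus strand, holds TGATGCAA, a C/EBP-ATF motif, and CCAAT on the other strand.
Srxn1: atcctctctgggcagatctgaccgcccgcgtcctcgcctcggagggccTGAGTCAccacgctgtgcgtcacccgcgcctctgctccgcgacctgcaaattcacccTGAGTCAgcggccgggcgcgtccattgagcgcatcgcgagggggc
Mcam: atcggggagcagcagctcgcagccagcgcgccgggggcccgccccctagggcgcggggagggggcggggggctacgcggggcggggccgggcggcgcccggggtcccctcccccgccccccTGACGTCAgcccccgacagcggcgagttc
Oas1c: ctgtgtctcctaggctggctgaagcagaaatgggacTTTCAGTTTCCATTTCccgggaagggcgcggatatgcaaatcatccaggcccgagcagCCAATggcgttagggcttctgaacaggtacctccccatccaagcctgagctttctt
Avil: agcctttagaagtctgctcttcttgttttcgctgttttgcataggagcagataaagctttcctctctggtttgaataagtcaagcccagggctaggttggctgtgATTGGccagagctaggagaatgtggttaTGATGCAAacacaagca

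Searched on both strands, the AP-1 motif stood in 12.5% of the member windows and in 7.81% of all 32851 windows of the table, in Ak1, Sac3d1, Srxn1, Upp1 and D730003I15Rik. The CRE stood in 2.08% of member windows and 1.79% of all windows, the ISRE in 4.17% and 3.44%, and the C/EBP-ATF motif in 2.08% and 0.895%. CCAAT was in 20.8% of member windows and 37.4% of all, TATAAA in 6.25% and 13.6%, and CACGTG, the E-box, in 4.17% and 7.15%. The heat shock element and the p53 response element matched 0 of the 48 member windows, against 0.603% and 0.0731% of all windows, and a single arm of the p53 element stood in 10.4% of member windows and 8.36% of all. With 48 windows, 1 window is 2.08% of them, and no motif was in most members. A match is only a run of letters in this window.

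Of the genes in the tables, 1452 met the 4-week criteria. The members are the 49 of them (3.37%) whose ratio lay in the window at 4.5 weeks; 1395 genes (96.1%) had a ratio above the window at 4.5 weeks and 8 (0.551%) one below it. The median ratio at 4.5 weeks over the 1452 genes was 4.40. Within the members the ratio of cKO to control means at 4 weeks ran between 1.702 and 45.9, with a median of 1.89, and was 2 or more in 17 members and 3 or more in 4. At 4.5 weeks it ran between 0.830 and 1.25, with a median of 1.07. The mean level in cKO libraries at 4 weeks spanned 2.26 to 240.0 CPM (median 12.3 CPM), so the set holds both abundant and scarce transcripts. Of the single cKO libraries of 4 weeks, library 1 alone stood at 1.7 times the control mean or more in 29 members, library 2 in 42 and library 3, the male one, in 46. Library 1 was the lowest of the 3 cKO libraries in 30 of the 49 members. With the male library 3 as the only cKO library of 4 weeks, Klhdc7a, Fam196a, Slc25a21 and ENSMUSG00000120718.1 left the set.

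**Figure D1:**
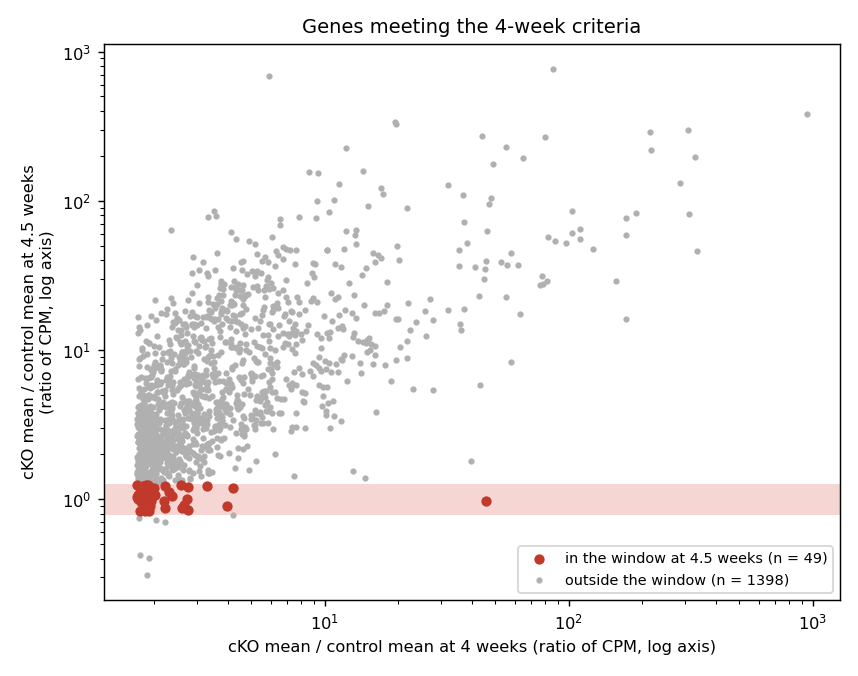
Ratio of cKO to control mean CPM at 4 weeks (horizontal, log axis) and at 4.5 weeks (vertical, log axis) for the genes that met the 4-week criteria, with 1447 drawn and 5 that had no control count left out. The 49 members are the coloured points inside the band from 0.8 to 1.25, below the 1395 genes that lie above the band.

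The genes nearest to each limit of the rule show how thin its edges are. At the ratio of 1.7, Klhdc7a (1.702) and Fam196a (1.71) lay just inside, and Klhl26 (1.699) and Ifit1bl1 (1.69) just outside. At the upper limit of the window, Snapc2 (1.24) and Mcam (1.24) were inside, and Rbm43 (1.27) and Trp53rkb (1.28) outside. At the lower limit, Srxn1 (0.83) and Stbd1 (0.83) were inside, and Aldh1a3 (0.787) and Hoxc9 (0.730) outside. At the floor of 2 CPM, Gadl1 (2.35 CPM) and Arhgap28 (2.6 CPM) were inside, and B3gnt6 (1.497 CPM) and Cxcl11 (1.25 CPM) outside. Cxcl11 encodes an interferon-induced chemokine. Its cKO mean at 4 weeks was 7.56 times the control mean, and its ratio at 4.5 weeks was 1.18, so only the floor kept it out.

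A ratio near 1 at 4.5 weeks can come from a low cKO level, a high control level or both, and the levels themselves separate these. The cKO mean was lower at 4.5 weeks than at 4 weeks in all 49 members, at 0.224 to 0.897 of its 4-week value (median 0.519), and below 0.8 of it in 47. The exceptions were Dysf and Fam196a. In 42 members all 3 cKO libraries of 4.5 weeks lay below all 3 of 4 weeks, an ordering that 33.5% of all tested genes showed. The rule favours such a fall, because it asks for a high ratio at 4 weeks and one near 1 at 4.5 weeks. These counts therefore describe the choice of members and are not a separate result about them. Control means moved less: their ratio of 4.5 to 4 weeks had a median of 0.989 and lay in the window in 32 members, below 0.8 in 9, between 1.25 and 1.7 in 6 and at 1.7 or more in 2, Avil and Arhgap28. Set against the controls of 4 weeks, the cKO mean of 4.5 weeks lay in the window for 32 members, above it for 10 and below it for 7. At 4.5 weeks the cKO and control libraries overlapped in 38 members. All 3 cKO libraries lay above all 3 controls in 9, an order found in 40.4% of all tested genes, and below them in 2, Srxn1 and Avpi1, an order found in 32.0%. The rule favours overlap at 4.5 weeks too, so these orders are likewise a description.

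**Figure D2:**
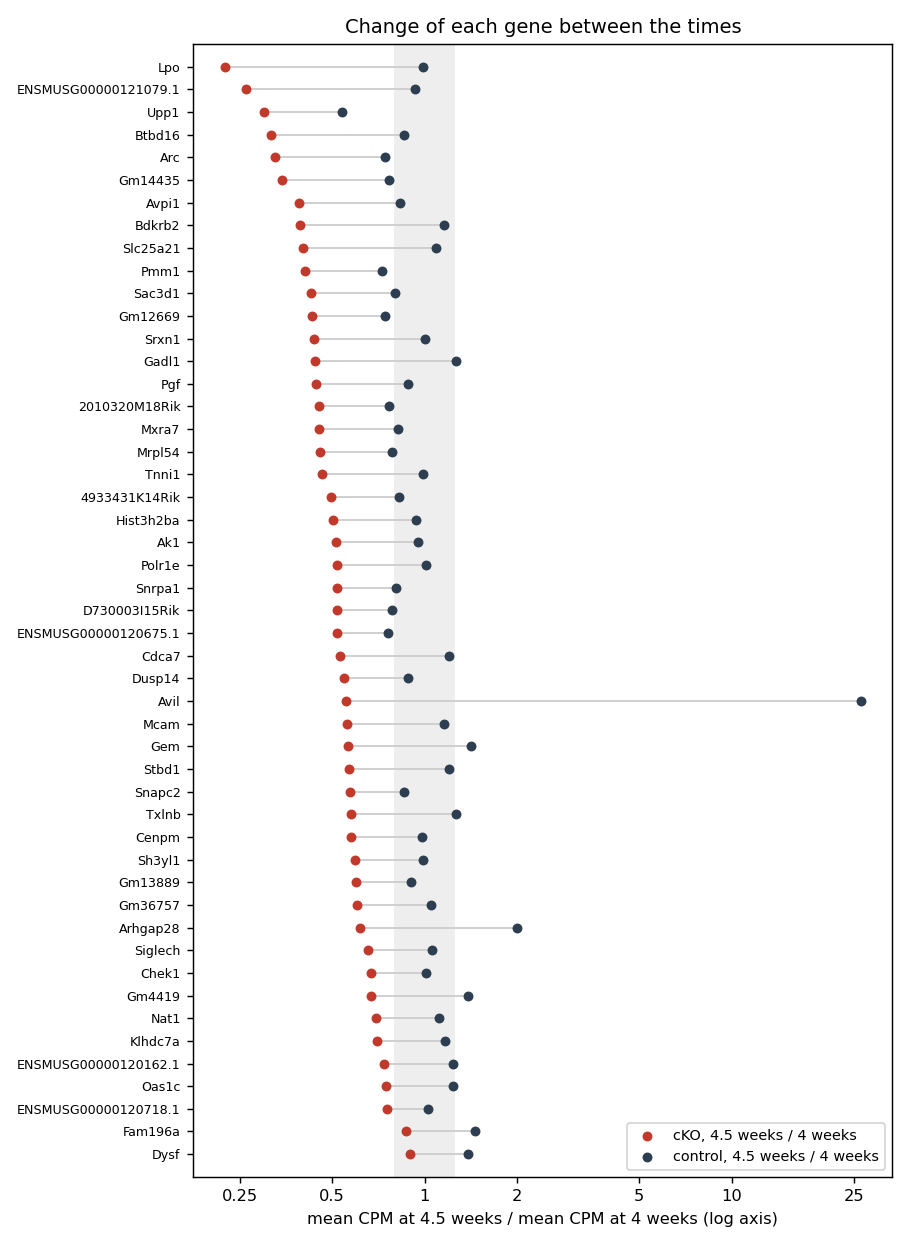
Ratio of mean CPM at 4.5 weeks to that at 4 weeks in the libraries labelled cKO and in the controls, 1 point per member and group, on a log axis. The cKO points lie between 0.224 and 0.897 and the control points mostly between 0.8 and 1.25, with Avil far above.

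Read through the fit across all genes, the log2 difference of cKO from control at 4 weeks had a median of 0.83 in the members and 0.01 in all 19278 genes tested. It was 0.01 and 0.02 at 4.5 weeks. The quasi-likelihood test of edgeR with Benjamini-Hochberg adjustment, at an adjusted p below 0.05, called 46 of the 49 members higher at 4 weeks (all but Stbd1, Gm14435 and Arhgap28), where it called 20.1% of all tested genes higher and 17.2% lower. At 4.5 weeks it called 2 members higher, Mcam and Mxra7, and 2 lower, Srxn1 and Avpi1, against 33.3% and 32.6% of all genes. The change of the cKO effect between the times was called lower in 36 members and in 21.9% of all genes, and cKO libraries of 4.5 weeks stood lower than those of 4 weeks in 40 members and in 28.8% of all genes. Between the control groups, 2 members were called higher and 6 lower at 4.5 than at 4 weeks, against 9.53% and 7.21% of all genes. Of all genes called between the controls 56.9% were higher, and 45.7% with upper quartile scaling. The calls of cKO against control, and of the change of that effect, rest on the values that chose the members, and nothing is read from them. The rule also used both cKO groups and both control groups, so the comparisons between the times are only a description for the members, and nothing is read from them either.

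The most abundant members were enzymes of sugar, redox and nucleotide metabolism, and their membership depends on the scaling. Srxn1 and Ak1 left the set with TMM, DESeq2 or upper quartile scaling in place of the column sum, and Pmm1 with DESeq2 size factors. Pmm1 encodes a phosphomannomutase, which interconverts mannose phosphates for glycosylation. It held 245, 228 and 248 CPM in the cKO libraries of 4 weeks and 135, 137 and 124 CPM in controls, means of 240.0 ± 10.6 and 132 ± 7.13 CPM (SD, n = 3 each) and a ratio of 1.82. Pmm1 at 4.5 weeks held 94.8, 103 and 97.1 CPM in cKO and 95.9, 91.8 and 101 CPM in control libraries. These overlapped, and both groups lay below the lowest control of 4 weeks, so the cKO level ended under the earlier control level. Srxn1 encodes sulfiredoxin, which restores over-oxidised peroxiredoxins and is a target of Nrf2 and AP-1; the stretch before its start site holds the AP-1 matches printed above. Srxn1 held 206, 265 and 237 CPM in cKO and 123, 123 and 125 CPM in control libraries at 4 weeks, a ratio of 1.91, and 97.6, 108 and 104 CPM in cKO and 129, 122 and 122 CPM in control libraries at 4.5 weeks. Control Srxn1 was nearly the same at both times (124 ± 3.71 CPM at 4.5 weeks and 124 ± 0.869 CPM at 4 weeks), and its cKO libraries passed from above all controls to below all of them. Ak1, the adenylate kinase of the cytosol, held 191, 215 and 209.8 CPM in cKO and 119.6, 120.4 and 108 CPM in control libraries at 4 weeks, and 104, 103 and 110.2 CPM against 109, 109.6 and 114 CPM at 4.5 weeks. Its controls were steady too, and the groups overlapped at the later time.

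Lpo had the largest ratio among the named members other than Avil. It encodes lactoperoxidase, a secreted peroxidase known from milk, saliva and airways. Lpo held 25.5, 34.5 and 33.3 CPM in cKO libraries of 4 weeks and 7.64, 8.31 and 7.59 CPM in controls, a ratio of 3.96. Lpo at 4.5 weeks held 8.14, 6.52 and 6.24 CPM in cKO and 8.22, 7.003 and 8.03 CPM in control libraries. Its cKO mean thus ended at 0.224 of its 4-week value, the lowest share of any member, and the libraries of both groups overlapped there. Mpo, its nearest neighbour and fellow peroxidase, was near the detection limit in both groups at 4 weeks (0.157 CPM in cKO and 0.205 CPM in control libraries on average). Upp1, a uridine phosphorylase of pyrimidine salvage, held 3.97, 4.05 and 3.8 CPM in cKO and 2.25, 2.48 and 1.9 CPM in control libraries at 4 weeks, and 1.17, 1.25 and 1.12 CPM against 1.08, 1.15 and 1.34 CPM at 4.5 weeks. Its control ratio of 0.539 between the times was the smallest of the 49, so both groups were lower at the later time.

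The remaining metabolic members were scarce. Gadl1, a decarboxylase that makes beta-alanine, held 1.81, 2.45 and 2.79 CPM in cKO and 0.611, 1.18 and 0.877 CPM in control libraries at 4 weeks (ratio 2.64). Slc25a21, the mitochondrial carrier of oxodicarboxylates, held 3.2, 2.98 and 1.63 CPM in cKO and 1.05, 0.816 and 1.002 CPM in control libraries (ratio 2.73). The lowest of its cKO values was that of the male library. Gadl1 and Slc25a21 were near 1 CPM in either group at 4.5 weeks, with ratios of 0.918 for Gadl1 and 1.01 for Slc25a21. Nat1, an arylamine N-acetyltransferase, had ratios of 1.77 and 1.1 at 4 and 4.5 weeks. Stbd1, which tethers glycogen to membranes, had ratios of 1.75 and 0.83, but control library 1 of 4.5 weeks (5.81 CPM) stood 2.91 times above the mean of the other controls, and its later ratio without that library was 1.36.

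**Figure D3:**
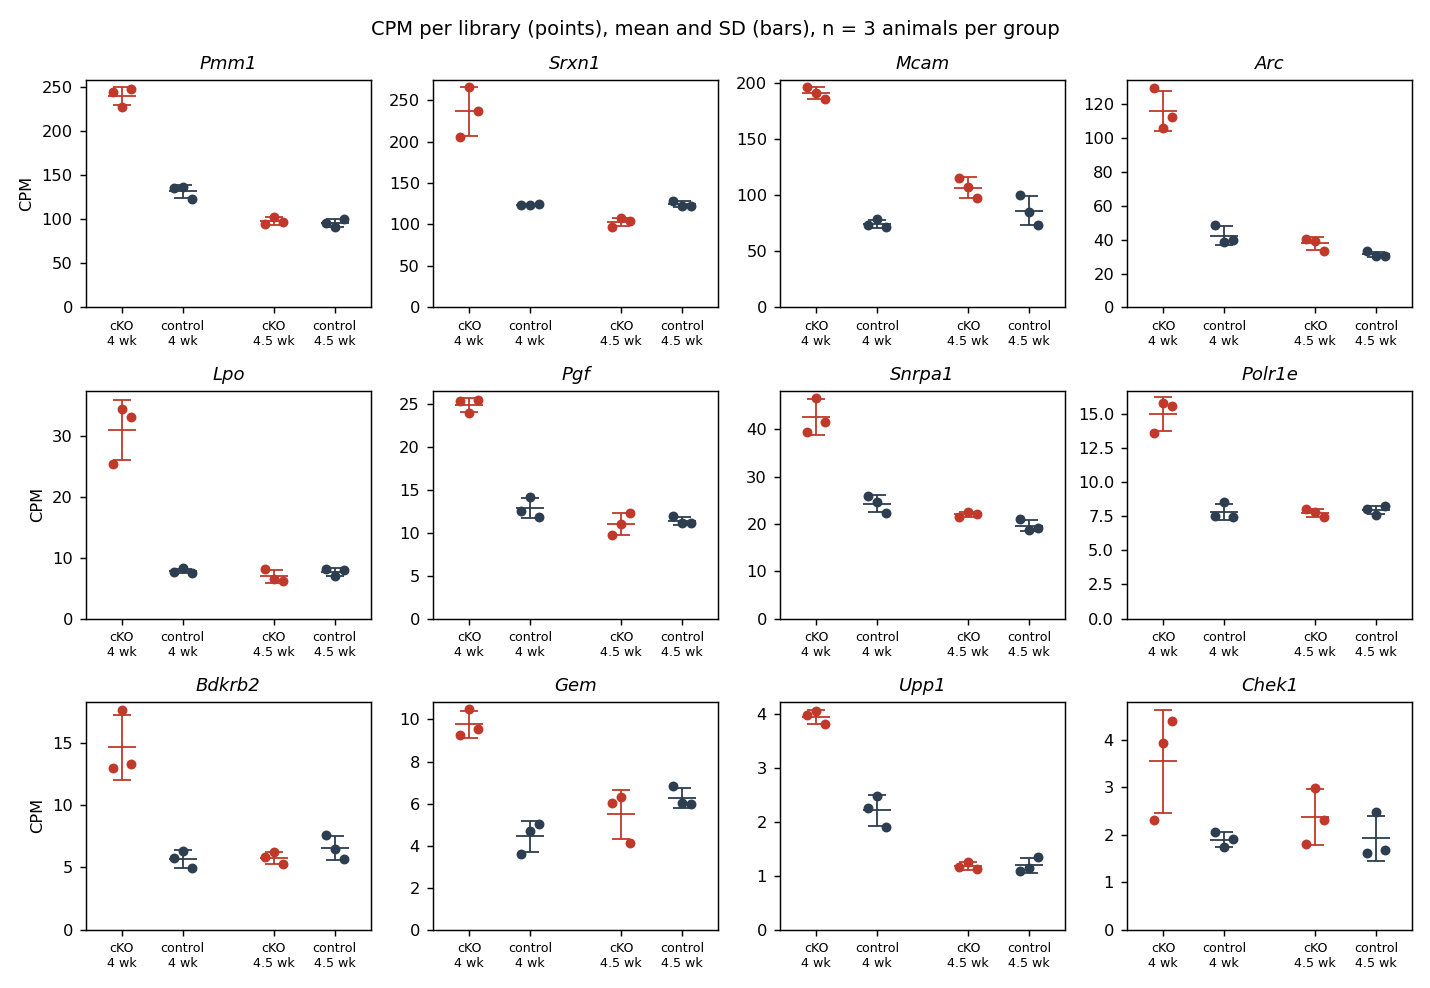
CPM of 12 members in every library at 4 and 4.5 weeks, cKO left of control, with 1 point per library and a bar at the group mean. At 4 weeks all cKO points lie above all control points, and at 4.5 weeks the groups overlap for most of the members drawn, with the cKO points of Srxn1 below the controls and those of Arc and Snrpa1 above.

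Among genes of signalling and the cell surface, Mcam and Arc were the most abundant. Mcam encodes CD146, an adhesion molecule of endothelial cells and pericytes. It held 197, 191 and 186 CPM in cKO and 73.6, 78.7 and 71.4 CPM in control libraries at 4 weeks, a ratio of 2.57. Mcam at 4.5 weeks held 116, 108 and 97.7 CPM in cKO and 100.4, 85.1 and 73.9 CPM in control libraries. Only the highest control passed the lowest cKO library, and the ratio was 1.35 without that control, outside the window. The other vascular genes of the marker list summed to 729, 923 and 716 CPM in cKO and 849.8, 929.7 and 810.5 CPM in control libraries at 4 weeks, without separating the groups as Mcam did. They summed to 1150.1, 979 and 1090.0 CPM in cKO and 931, 715 and 708 CPM in control libraries at 4.5 weeks. Arc encodes an activity-regulated protein of the postsynapse that controls the uptake of glutamate receptors. It held 129.6, 106 and 113 CPM in cKO and 48.9, 38.5 and 39.9 CPM in control libraries at 4 weeks (ratio 2.74), and 40.7, 39.3 and 33.5 CPM against 33.2, 30.6 and 30.6 CPM at 4.5 weeks. The 3 cKO libraries of 4.5 weeks remained just above the 3 controls, and Arc in controls was 0.742 of its 4-week mean.

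Bdkrb2, the bradykinin B2 receptor, held 12.98, 17.6 and 13.3 CPM in cKO and 5.74, 6.34 and 4.91 CPM in control libraries at 4 weeks (ratio 2.58), and 5.85, 6.21 and 5.24 CPM against 7.55, 6.5 and 5.64 CPM at 4.5 weeks. The groups overlapped at the later time. Gem, a small GTPase that restrains voltage-gated calcium channels, held 9.28, 10.5 and 9.55 CPM in cKO and 3.59, 4.71 and 5.01 CPM in control libraries at 4 weeks, and 6.03, 6.3 and 4.12 CPM against 6.82, 6.03 and 5.96 CPM at 4.5 weeks. Its control mean was 1.41 times higher at the later time, so part of the closing ratio lay in the control means. That control difference was not called (adjusted p = 0.052 by edgeR's quasi-likelihood test). Pgf, placental growth factor, is a VEGF-family ligand of the receptor Flt1. It held 25.3, 23.9 and 25.4 CPM in cKO and 12.5, 14.1 and 11.9 CPM in control libraries at 4 weeks (ratio 1.94), and 9.72, 10.98 and 12.3 CPM against 11.9, 11.1 and 11.1 CPM at 4.5 weeks. The cKO and control libraries of Pgf overlapped at the later time, with a ratio of 0.967. Avpi1, named for its induction by vasopressin, had ratios of 1.9 and 0.892 at 4 and 4.5 weeks, and its cKO libraries of 4.5 weeks (9.005, 9.81 and 9.94 CPM) lay below the controls (10.9, 10.03 and 11.3 CPM). Dusp14, a dual-specificity phosphatase of the MAP kinase pathways, had ratios of 1.89 and 1.17. Fam196a, a gene of inhibitory synapses, had ratios of 1.71 and 1.02, and its controls were 1.46 times higher at 4.5 than at 4 weeks while its cKO level was 0.872 of the earlier one.

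The genes for RNA and protein synthesis had modest ratios. Snrpa1 encodes a protein of the U2 small nuclear ribonucleoprotein and so of the class of particles whose assembly needs the SMN complex. It held 39.5, 46.7 and 41.6 CPM in cKO and 25.9, 24.6 and 22.4 CPM in control libraries at 4 weeks, a ratio of 1.75. Snrpa1 at 4.5 weeks held 21.6, 22.5 and 22.1 CPM in cKO and 20.97, 18.8 and 19.2 CPM in control libraries, still without overlap, and both means were lower than at 4 weeks. Snapc2, a subunit of the complex that starts transcription of small nuclear RNA genes, held 40.9, 53.9 and 53.8 CPM in cKO and 27.2, 26.6 and 26.5 CPM in control libraries at 4 weeks, and 25.2, 29.98 and 29.9 CPM against 22.2, 22.9 and 23.5 CPM at 4.5 weeks, also without overlap. Polr1e, a subunit of RNA polymerase I, held 13.6, 15.8 and 15.6 CPM in cKO and 7.55, 8.52 and 7.46 CPM in control libraries at 4 weeks (ratio 1.91), and 8.04, 7.8 and 7.45 CPM against 8.02, 7.6 and 8.22 CPM at 4.5 weeks, where the groups overlapped. Mrpl54 of the large mitochondrial ribosomal subunit had ratios of 1.71 and 1.001 at 4 and 4.5 weeks, and Sac3d1, a SAC3-domain protein, 1.999 and 1.06. The H2B histone gene Hist3h2ba had ratios of 2.002 and 1.07. Histone genes share sequence with their copies, so its reads may be split among them.

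Cell cycle members were scarce. Chek1, the kinase that halts the cycle when replication stalls, held 2.31, 3.94 and 4.39 CPM in cKO and 2.05, 1.75 and 1.9 CPM in control libraries at 4 weeks (ratio 1.86), and 1.81, 2.98 and 2.32 CPM against 1.62, 2.48 and 1.68 CPM at 4.5 weeks. Cdca7, a target of Myc and E2F and a partner of the chromatin remodeller Hells, held 2.85, 5.78 and 6.98 CPM in cKO and 2.15, 2.45 and 2.03 CPM in control libraries at 4 weeks (ratio 2.36), and 2.58, 2.54 and 3.18 CPM against 2.99, 2.93 and 2.03 CPM at 4.5 weeks. Cenpm, a centromere protein, had ratios of 1.86 and 1.09. In each of these genes the cKO libraries of the later time overlapped the controls and also the cKO libraries of 4 weeks. Proliferation genes as a list stood apart from controls at both times: their 31 genes summed to 334, 651 and 553 CPM in cKO and 219, 194 and 199 CPM in control libraries at 4 weeks, and to 485, 638 and 624 CPM in cKO and 197, 194 and 175 CPM in control libraries at 4.5 weeks.

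Members of the cytoskeleton, the membrane and muscle came next. Dysf, dysferlin of membrane repair, held 17.8, 26.9 and 26.2 CPM in cKO and 10.9, 13.6 and 13.2 CPM in control libraries at 4 weeks, and 22.97, 22.1 and 18.6 CPM against 18.2, 16.9 and 16.97 CPM at 4.5 weeks. Its cKO mean at 4.5 weeks was 0.897 of that at 4 weeks, and its controls were 1.39 times higher at the later one. Tnni1, the troponin I of slow muscle fibres, held 9.61, 14.2 and 14.1 CPM in cKO and 6.5, 8.1 and 5.23 CPM in control libraries at 4 weeks (ratio 1.91), and 6.2, 5.07 and 6.24 CPM against 6.87, 5.6 and 7.13 CPM at 4.5 weeks. The other 31 skeletal muscle genes of the marker list summed to 306, 266 and 362 CPM in cKO and 299, 337 and 296 CPM in control libraries at 4 weeks, without separating the groups as Tnni1 did. Control library 2 of 4.5 weeks stood apart with 665 CPM, against 283 and 314 CPM in the other controls and 170.0, 163 and 167 CPM in cKO libraries. Txlnb, a taxilin of muscle, had ratios of 1.83 and 0.834 at 4 and 4.5 weeks, and Klhdc7a, a kelch-repeat gene, 1.7 and 1.03. Sh3yl1, which binds phosphoinositides, had 1.81 and 1.09. Mxra7 had ratios of 2.2 and 1.22, and its cKO libraries remained above the controls at the later time. Btbd16 held 1.3, 4.52 and 3.29 CPM in cKO and 0.904, 0.846 and 1.03 CPM in control libraries at 4 weeks (ratio 3.29). The cKO values varied among themselves, and cKO library 1 was the lowest.

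Avil and Arhgap28 owed their place to 1 control library of 4.5 weeks. Avil encodes advillin, an actin-binding protein of sensory neurons. It held 16.1, 24.8 and 22.3 CPM in cKO and 0.318, 0.332 and 0.726 CPM in control libraries at 4 weeks, a ratio of 45.9, the highest of the set. Avil at 4.5 weeks held 11.5, 13.4 and 10.3 CPM in cKO and 35.3, 0.25 and 0.587 CPM in control libraries, so control library 1 stood above every cKO library while the other controls were below 1 CPM. Without that library the ratio was 27.98, and Avil would not be a member. Arhgap28, a GTPase-activating protein, held 2.61, 2.95 and 2.22 CPM in cKO and 1.1, 0.785 and 0.952 CPM in control libraries at 4 weeks, and 1.69, 1.7 and 1.4 CPM against 5.03, 0.4002 and 0.252 CPM at 4.5 weeks, with a ratio of 4.9 in place of 0.843 without control library 1. Control library 1 also held sensory ganglion transcripts. The channel Scn10a of nociceptors had 0, 0.223 and 0.0286 CPM in the cKO libraries of that time, against 26.6 CPM in control library 1 and values near 0 in the other controls. In the cKO libraries of 4 weeks, where Avil was high, Scn10a was at 0.0593, 0.186 and 0.0282 CPM and Mrgprd, another nociceptor gene, at 0 in all 3. The 40 other genes of the sensory ganglion list summed to 2389.8, 2376 and 2240.1 CPM in those libraries and 2308, 2492 and 2698 CPM in their controls, and 4 to 6 of its genes were at 0 in each of these 6 libraries.

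Trpv1, the heat and capsaicin channel of nociceptors, was chosen after its values were seen because it repeats the Avil pattern outside the set. It held 2.99, 4.52 and 4.81 CPM in cKO and 0.0244, 0.211 and 0.0751 CPM in control libraries at 4 weeks. Trpv1 at 4.5 weeks held 2.41, 2.17 and 1.69 CPM in cKO and 3.38, 0 and 0.105 CPM in control libraries, again with the highest value in control library 1. Its log2 difference was 5.26 (SE 1.3, adjusted p = 0.0071) at 4 weeks and 0.8 (SE 0.97, adjusted p = 0.49) at 4.5 weeks by edgeR's quasi-likelihood test, and 5.04 (adjusted p = 3.6e-05) at 4.5 weeks without control library 1. Both later values rest on whether that library is used. Without control library 1, 38 of the 49 members stayed in the window, without library 2, 44, and without library 3, 42.

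**Figure D4:**
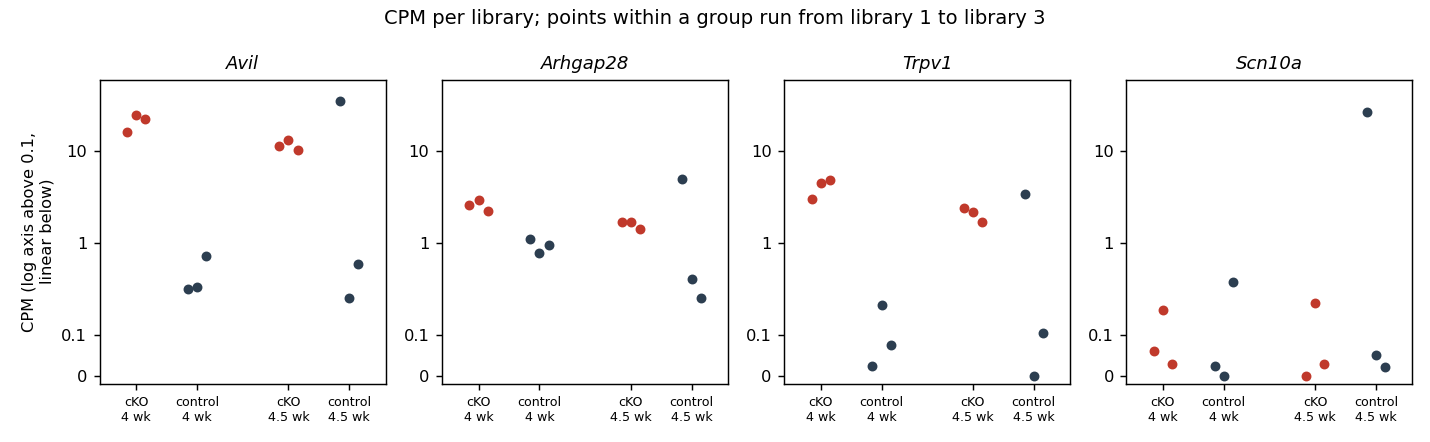
CPM of Avil, Arhgap28, Trpv1 and Scn10a in each of the 12 libraries cKO left of control at each time and libraries 1 to 3 left to right within a group, on an axis that is logarithmic above 0.1 CPM and linear below. Avil, Arhgap28 and Trpv1 are high in the cKO libraries of both times and in control library 1 of 4.5 weeks, while Scn10a is high only in that control.

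The immune members were modest. Siglech, a sialic acid-binding lectin of microglia and plasmacytoid dendritic cells, held 14.8, 16.6 and 17.4 CPM in cKO and 9.5, 9.85 and 9.04 CPM in control libraries at 4 weeks (ratio 1.72), and 10.3, 13.7 and 7.96 CPM against 10.4, 8.95 and 10.7 CPM at 4.5 weeks. Oas1c, a mouse paralogue of the antiviral 2′-5′ oligoadenylate synthetase, held 2.96, 5.32 and 3.52 CPM in cKO and 2.25, 2.08 and 1.78 CPM in control libraries at 4 weeks (ratio 1.93), and 2.68, 3.09 and 3.06 CPM against 2.82, 2.33 and 2.39 CPM at 4.5 weeks. The groups overlapped at the later time in both genes. Oas1 paralogues are close copies, and how reads were shared among them is uncertain.

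The other members fall outside the rule for naming genes, which leaves out provisional symbols, and are named to account for the whole set. The unmatched ENSMUSG00000121079.1 held 13.8, 12.3 and 11.99 CPM in cKO and 2.47, 3.75 and 2.85 CPM in control libraries at 4 weeks, a ratio of 4.21, and 3.2, 3.96 and 2.86 CPM against 2.92, 3.13 and 2.39 CPM at 4.5 weeks. It had the second highest ratio of the set. The unmatched ENSMUSG00000120162.1, ENSMUSG00000120675.1 and ENSMUSG00000120718.1 had ratios of 2.002, 1.79 and 1.7 at 4 weeks. Of the lincRNAs, 2010320M18Rik had a ratio of 1.74, D730003I15Rik of 1.88 and Gm36757 of 1.88. The antisense gene Gm4419 had 2.3, the pseudogene Gm12669 1.85 and 4933431K14Rik 1.87. The protein-coding Gm13889 and Gm14435 had 1.76 and 2.19. In Gm14435, 1 control of 4.5 weeks stood 3.51 times above the mean of the other controls, and the later ratio without control library 1 was 1.8.

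Relatives of the members were put into families after the members were known, and the genes named from them were chosen after their values were seen. A gene is called here by edgeR's adjusted p, against the background of 20.1% higher and 17.2% lower at 4 weeks and 33.3% higher and 32.6% lower at 4.5 weeks. Counts of 2 or fewer in these families moved by up to 3 genes between settings and say little. The counts at the 2 times need not be of the same genes, and whether a family differed from its member or from another family was not tested. Of the 35 other immediate early genes tested, 20 were higher and 0 lower at 4 weeks (median log2 difference 0.69), and 28 were higher and 4 lower at 4.5 weeks (median 1.41). Leaving out cKO library 2 or control library 2 of 4.5 weeks made the count of lower genes 1. Btg2, an antiproliferative early gene, held 60.7, 80.7 and 74.95 CPM in cKO and 8.3, 6.19 and 10.5 CPM in control libraries at 4 weeks, and 61.5, 57.4 and 60.4 CPM against 9.93, 8.38 and 6.52 CPM at 4.5 weeks. The groups stayed apart at both times, with log2 differences of 3.02 (SE 0.18, adjusted p = 1.2e-07) and 2.78 (SE 0.17, adjusted p = 2.2e-08) by edgeR. Fos, the AP-1 subunit, had log2 differences of 1.68 (SE 0.22, adjusted p = 0.0001) and 1.42 (SE 0.23, adjusted p = 0.0001) at 4 and 4.5 weeks by edgeR, and Junb, another AP-1 subunit, of 1.96 (SE 0.33, adjusted p = 0.00056) and 2.41 (SE 0.33, adjusted p = 2.9e-05). Of the 13 partners of Arc at the postsynapse tested, 0 were higher and 9 lower at 4 weeks, and 2 were higher and 8 lower at 4.5 weeks. Of the 4-week libraries, leaving out cKO library 2 turned the 9 into 1, control library 1 into 2 and control library 3 into 5. Camk2g, a calcium/calmodulin kinase subunit, had log2 differences of -0.35 (SE 0.06, adjusted p = 0.00097) and -1.34 (SE 0.06, adjusted p = 2.7e-09) by edgeR.

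All 7 other tested Oas genes were called higher at 4 weeks and at 4.5 weeks, and limma-voom called 2 at 4 weeks and 3 at 4.5 weeks. Oas1b, which lies 121 bases from Oas1c in the annotation, had log2 differences of 3.74 (SE 0.77, adjusted p = 0.0022) and 2.62 (SE 0.75, adjusted p = 0.0081) by edgeR, with adjusted p of 0.091 and 0.1 by limma-voom. Oas1a held 5.72, 38.8 and 24.4 CPM in cKO and 1.22, 1.53 and 1.1 CPM in control libraries at 4 weeks, and 18.9, 23.9 and 12.6 CPM against 1.41, 0.58 and 0.766 CPM at 4.5 weeks. Oas1a therefore kept its distance from controls at the time when Oas1c overlapped them. Of the 6 other Siglec genes, 5 were higher and 1, the myelin gene Mag, lower at each time, and Siglec1, a macrophage lectin, had log2 differences of 3.73 (SE 0.69, adjusted p = 0.0011) and 7.27 (SE 0.68, adjusted p = 8.8e-07) by edgeR. Of the 16 other homeostatic microglia genes, 12 were higher and 1 lower at 4 weeks (median 1.09), and 15 were higher and 0 lower at 4.5 weeks (median 3.21). They summed to 2201, 2487 and 2459 CPM in cKO and 1748, 1679.7 and 1649 CPM in control libraries at 4 weeks, and to 6261, 6288 and 5874 CPM in cKO and 1706, 1596 and 1538 CPM in control libraries at 4.5 weeks. Tmem119, a marker of resident microglia, had log2 differences of 0.64 (SE 0.16, adjusted p = 0.007) and 1.8 (SE 0.16, adjusted p = 5.1e-07) by edgeR, so that marker was further from controls at 4.5 weeks, when Siglech overlapped them.

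Of the 16 other proteins of the U2 particle, 11 were higher and 0 lower at each time, and of the 32 other SMN complex and spliceosomal proteins, a list that shares genes with it, 13 were higher and 3 lower at 4 weeks and 11 higher and 11 lower at 4.5 weeks. Snrpc, of the U1 particle, had log2 differences of 0.7 (SE 0.08, adjusted p = 4.8e-05) and 0.53 (SE 0.09, adjusted p = 0.00012) by edgeR, and Sf3b5, of the U2-bound SF3b complex, of 0.61 (SE 0.07, adjusted p = 4.0e-05) and 0.41 (SE 0.07, adjusted p = 0.00025). Of the 11 other RNA polymerase I subunits, 5 were higher and 0 lower at 4 weeks and 5 higher and 1 lower at 4.5 weeks. The first count was 2 without cKO library 3, and 3 without control library 1 or 3 of 4 weeks or with each time fitted alone. Polr1d had log2 differences of 0.49 (SE 0.05, adjusted p = 1.9e-05) and 0.73 (SE 0.05, adjusted p = 7.7e-08) by edgeR. Of the 48 other genes of the large mitochondrial ribosomal subunit, 13 were higher and 0 lower at 4 weeks, and 5 were higher and 29 lower at 4.5 weeks. Of the higher counts, the 13 became 8 without cKO library 3 and 6 without control library 3 of 4 weeks, and the 5 became 3 without cKO library 2 or 3 and 2 without control library 2 or 3 of 4.5 weeks. Mrpl46 held 35.6, 36.99 and 34.8 CPM in cKO and 29.2, 28.1 and 26.2 CPM in control libraries at 4 weeks, and 13.4, 15.2 and 15.98 CPM against 23.3, 22.6 and 24.2 CPM at 4.5 weeks, which put it above the controls at 4 weeks and below them at 4.5 weeks.

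**Figure D5:**
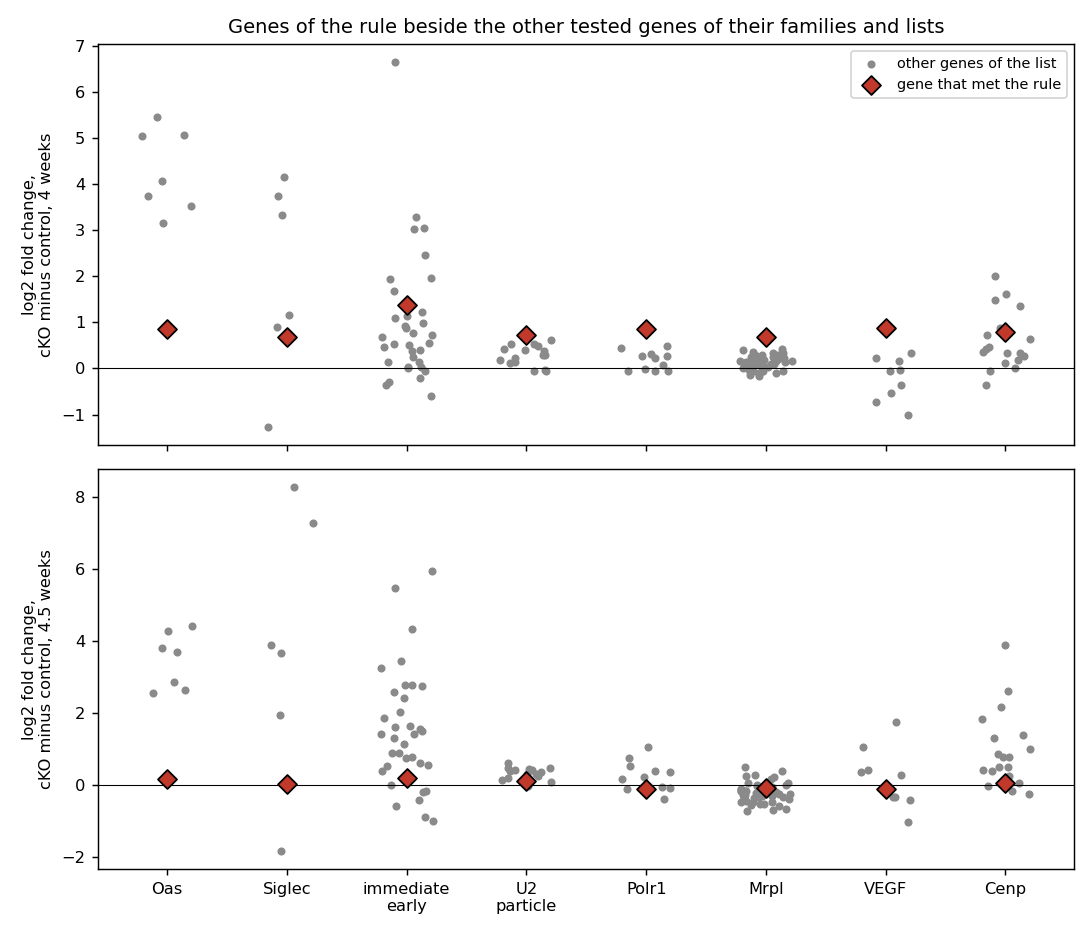
Log2 difference of cKO from control for the tested relatives of members in 8 families, at 4 weeks and at 4.5 weeks, with 1 grey point per gene and the member as a red diamond. The Oas, Siglec, immediate early, U2 and centromere relatives lie mostly above 0 at both times, and most mitochondrial ribosomal relatives lie below 0 at 4.5 weeks.

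Metabolic and cell cycle relatives were mixed. Of the 4 other phosphomannomutase and GDP-mannose genes, 2 were higher and 0 lower at 4.5 weeks. Pmm2, the other phosphomannomutase, had log2 differences of 0.03 (SE 0.11, adjusted p = 0.84) and 0.72 (SE 0.11, adjusted p = 5.7e-05) by edgeR, so it was higher at 4.5 weeks, when Pmm1 was not. Of the 19 other heme and Nrf2 antioxidant genes, 8 were higher and 2 lower at 4 weeks, and 8 were higher and 6 lower at 4.5 weeks. Hmox1, heme oxygenase 1, had log2 differences of 2.75 (SE 0.17, adjusted p = 1.7e-07) and 3.54 (SE 0.17, adjusted p = 2.7e-09) by edgeR. Of the 14 peroxiredoxins and sestrins, 4 were higher and 1 lower at 4 weeks, and 9 were higher and 5 lower at 4.5 weeks. Sesn2, a stress-induced sestrin, had log2 differences of 2.03 (SE 0.08, adjusted p = 3.1e-09) and 1.4 (SE 0.07, adjusted p = 5.7e-09) by edgeR. Of 10 other genes of starch binding and glycogen breakdown, 2 were higher and 6 lower at 4 weeks. Pygm, the muscle glycogen phosphorylase, had log2 differences of -1.34 (SE 0.2, adjusted p = 0.0002) and -2.0 (SE 0.2, adjusted p = 1.6e-06) by edgeR. Of the 9 other VEGF-family genes 0 were higher and 3 lower at 4 weeks (1 without cKO library 3 or without control library 1), and 3 were higher and 2 lower at 4.5 weeks. Vegfa had log2 differences of -0.73 (SE 0.09, adjusted p = 4.4e-05) and -1.04 (SE 0.09, adjusted p = 3.6e-07) by edgeR.

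Of the 19 other centromere proteins, 7 were higher and 1 lower at 4 weeks (4 higher without control library 3), and 12 were higher and 1 lower at 4.5 weeks. Cenpa, the centromeric histone, had log2 differences of 2.01 (SE 0.36, adjusted p = 0.00096) and 3.89 (SE 0.39, adjusted p = 1.7e-06) by edgeR. Of the 11 other checkpoint kinases and partners, 5 were higher and 0 lower at 4 weeks and 6 higher and 1 lower at 4.5 weeks. Chek2 had log2 differences of 0.67 (SE 0.13, adjusted p = 0.0016) and 1.49 (SE 0.13, adjusted p = 4.0e-07) by edgeR. Of the 22 other DNA damage response genes, 4 were higher and 2 lower at 4 weeks (2 higher without cKO library 3 or without control library 3), and 8 were higher and 4 lower at 4.5 weeks. Of the 29 other tested sensory ganglion genes, 4 were higher and 3 lower at 4 weeks, and 3 were higher and 19 lower at 4.5 weeks, the 3 becoming 6 without control library 1 of 4.5 weeks. Of the 30 other tested skeletal muscle genes, 2 were higher and 1 lower at 4 weeks, and 1 was higher and 18 lower at 4.5 weeks. The 18 became 4 when control library 2 of 4.5 weeks was left out, 8 and 10 when cKO libraries 2 and 3 of that time were each left out, and 9 with the replicate number as a block.

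The members were spread over the genome, with 6 on chromosome 12, 5 each on chromosomes 2 and 11, and 4 each on chromosomes 4, 7 and 9. Their exonic length had a median of 2820 bases, against 3856 bases over the genes tested. Of the 90 tested genes next to a member that are not members themselves, 27 (30%) were higher and 11 (12.2%) lower at 4 weeks, against 20.1% and 17.2% of all genes tested, with a median log2 difference of 0.03. The lincRNA D730003I15Rik lies 6415 bases from Atf3, a stress-induced transcription factor chosen after its values were seen. Atf3 had log2 differences of 3.29 (SE 0.47, adjusted p = 0.00016) and 5.48 (SE 0.51, adjusted p = 7.5e-07) by edgeR, and D730003I15Rik ratios of 1.88 and 1.25. Tnni1 lies 10298 bases from Phlda3, a p53 target, which held 314, 336 and 333 CPM in cKO and 93.7, 86.03 and 89.7 CPM in control libraries at 4 weeks, and 156, 154 and 151 CPM against 74.7, 77.3 and 80.4 CPM at 4.5 weeks. Phlda3 stayed above its controls at both times. Btbd16 lies 9284 bases from Tacc2, a centrosome-associated coiled-coil gene with log2 differences of 0.64 (SE 0.08, adjusted p = 6.5e-05) and -0.28 (SE 0.08, adjusted p = 0.0084) by edgeR. Phlda3 and Tacc2 were also chosen after their values were seen. In the annotation the gene bodies of 8 members overlap a tested neighbour: Avil with Tsfm, Polr1e with Fbxo10, Mcam with Gm10687, Gm4419 with Ywhaq, Fam196a with Dock1 and Gm45597, Txlnb with Gm20655, 4933431K14Rik with Ibtk, and Gadl1 with Gm9385. The libraries do not mark strand, and whether the exons of these pairs overlap was not looked up, so reads of any shared stretch may stand under either gene. Tsfm held 15.5, 18.6 and 17.8 CPM in cKO and 14.1, 16.7 and 14.7 CPM in control libraries at 4 weeks, which overlapped where those of Avil did not.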

How the data were processed

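Messenger RNA libraries of 12 spinal cords (TruSeq RNA Sample Prep Kit v2, not stranded) were quantified by the authors. They deposited estimated counts per gene, in 1 table for each time, with no scaling for depth or gene length. Per the submitters' processing notes, STAR, RSEM and mm39 were used, without versions given. Estimated counts are not always whole and were rounded here for the tests.

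CPM was each count divided by its column sum, times 1000000. The 49 members and all lists were chosen with earlier results of these data known, and the families of relatives after the members were known. Symbols were those deposited by the authors, with 27 spreadsheet dates restored. Gene types, lengths and neighbours came from GENCODE M21, a different build from the authors', so none of its coordinates is printed. It matched 45 members by identifier. Promoters came from the RefSeq table of GRCm38.p6 (36 members matched).

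Tests used R 4.3.3 and edgeR 4.0.16 (filterByExpr with the 4 groups, TMM, glmQLFit and glmQLFTest, all 12 libraries in 1 model with a mean per group, Benjamini-Hochberg over 19278 genes, called at an adjusted p below 0.05) in 5 contrasts, and were tested on simulated data. Log2 differences are those of cKO from control, and SE is their approximate standard error. DESeq2 1.42.0, limma-voom (limma 3.58.1), other scalings and filters, a replicate block and each library left out in turn were alternatives. Replicates are independent biological replicates per the labels' protocols.

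Named members were, leaving out provisional symbols, the most abundant and those with the largest ratios, list members, those with the largest and smallest control ratios between the times or with 1 outlying control, those nearest a threshold, and neighbours. The remaining members are given to account for the whole set. Outside the members the rule named Ddx20 and the genes nearest outside each threshold, which their values picked. Every other gene outside the set that is named with values was chosen after they were seen. Of the 44 lists, 7 hold a member and are reported, with the marker lists that bear on a result.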

Additional observations from a re-analysis of the deposited data

Results flagged for a closer look

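The cKO effect of 14 genes outside the set, all named in the report after their values were seen, differed between the times by edgeR's quasi-likelihood test of the difference (effect at 4.5 weeks minus effect at 4 weeks, log2, adjusted over all genes tested). Every gene named there was looked at, so their number says nothing about how common such differences are.

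The effect was larger at 4.5 weeks, by 2.19 for Atf3 (adjusted p = 0.02), 0.8 for Hmox1 (adjusted p = 0.014), 3.54 for Siglec1 (adjusted p = 0.022) and 1.16 for Tmem119 (adjusted p = 0.0011). It was also larger by 0.24 for Polr1d (adjusted p = 0.02), 0.68 for Pmm2 (adjusted p = 0.0028), 0.82 for Chek2 (adjusted p = 0.0029) and 1.88 for Cenpa (adjusted p = 0.012).

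The difference was negative for Sesn2 (-0.62, adjusted p = 0.00041) and Phlda3 (-0.87, adjusted p = 3.6e-06), both still above controls at 4.5 weeks. It was -1.0 for Mrpl46 (adjusted p = 9.9e-06) and -0.92 for Tacc2 (adjusted p = 4.1e-05), which were above controls at 4 weeks and below them at 4.5 weeks. For Camk2g, below controls at both times, it was -0.98 (adjusted p = 4.3e-06). For Trpv1 it was -4.46 (adjusted p = 0.047), a value that rests on control library 1 of 4.5 weeks, without which the effect at that time was 5.04 (adjusted p = 3.6e-05).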

How the results depend on the processing

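The set held 17 members with a ratio of 2 at 4 weeks and 22 with a window whose lower end was 0.9, all shared with the 49. It shared 32 members with DESeq2 size factors (38 in all) and 30 with the ratio of medians (47 in all). Of the 49, 31 stayed under every scaling, 19 when any 1 library was left out, and 2, Hist3h2ba and Cdca7, under all 22 alternatives. TMM, DESeq2 and upper quartile scaling each lost Srxn1, Ak1, Klhdc7a, Snrpa1, Mrpl54, Siglech, Txlnb, Fam196a, Stbd1, Upp1 and Nat1. Each of them also lost Gm13889, 2010320M18Rik, ENSMUSG00000120675.1 and ENSMUSG00000120718.1. Of the scalings, DESeq2 size factors alone lost Pmm1 and Sh3yl1, and upper quartile scaling alone lost Arhgap28. Leaving out each library in turn gave 44 to 68 members, 38 to 46 of them shared. It gave 5476 to 7760 genes called at 4 weeks, 11754 to 13033 called at 4.5 weeks and 1313 to 3773 called between the control groups. Of the members, 41 to 48 were called at 4 weeks, 1 to 6 at 4.5 weeks and 2 to 11 between the control groups. The balance of calls turned in some settings. Between the control groups 1837 genes were called higher and 1390 lower, against 1885 and 1888 without cKO library 1 of 4 weeks and 1524 and 1809 with upper quartile scaling. At 4.5 weeks 6418 were called higher and 6283 lower in cKO, against 6260 and 6445 with that scaling, 6358 and 6362 with DESeq2 size factors and 6295 and 6318 by DESeq2. The members called at 4.5 weeks were 1 without cKO library 2 and 2 without control library 2 or 3 of that time. The members called between the control groups were 2 and 3 without control library 1 or 2 of 4 weeks, and 3 and 4 without control library 2 or 3 of 4.5 weeks. Of the recalculations of counts over the set or over all genes, 221 stayed within 1.5 times and 17 moved further. For values of single genes and families, 4614 kept their call or size, 185 moved, 4 lost a call and 2 gained one. The cause of these shifts was not tested.

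Same-numbered cKO and control libraries shared little of their deviations from the group means. These deviations correlated at -0.047, -0.009 and -0.165 at 4 weeks and 0.006, -0.003 and 0.057 at 4.5 weeks. Whether the replicate numbers pair animals cannot be told from such correlations. With the number as a block, 3624 genes were called higher and 3188 lower at 4 weeks, and 45 members. Of the members, 33 had a cKO mean of 5 CPM or more at 4 weeks, and the values of the other members rest on fewer counts.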
